A study of Saccharomyces cerevisiae with 11 samples.

Results

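Glycogen is the branched glucose polymer in which budding yeast (Saccharomyces cerevisiae) stores carbohydrate. The 10 genes described here encode enzymes that build and break it, the enzymes that supply UDP-glucose and, for GAC1, a regulatory subunit, and were chosen by name, with 1 gene listed per probe set, out of 5656 genes measured that way. Each of the 10 had exactly 1 probe set of its own. They were chosen with earlier results of these arrays known, among them the high scores of GLC3 and GPH1 in the paf1 deletion. The values of the 10 genes are therefore a description. No p-value is given for single members in the strain set, and nothing is read from which members pass a test there.

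Glycogenins start a chain, glycogen synthase extends it from UDP-glucose, and the branching enzyme adds branches. Phosphorylase and the debranching enzyme take the polymer apart. In yeast these genes are known as glucose-repressed and stress-induced, and glycogen builds up as glucose runs out.

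Total RNA was measured on 11 Affymetrix arrays. Wild type (2 arrays) was set beside strains with a paf1 deletion (2) or a ctr9 deletion (1), all taken at mid-log phase in YPD, a rich medium, with glucose at 4%. Paf1 and Ctr9 are subunits of the Paf1 complex, which travels with RNA polymerase II. The other arrays followed the TetO2-Paf1 strain, in which doxycycline shuts off the promoter placed before PAF1, at 0 h without the drug and after 2, 4, 5, 6 and 8 h with it, 1 array each. Strain genotypes, the medium of the time course and whether replicates were separate cultures were not given in the labels. A strain background that differs from wild type therefore cannot be told apart from the deletion, nor an effect of doxycycline itself from that of the shut-off. No culture without the drug was measured at the later times. Time in culture, growth phase and glucose use therefore cannot be told apart from hours of doxycycline. RNA of a culture is an average over its cells, so a higher level per cell and a larger share of cells with the transcript cannot be told apart.

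The 2 sets of arrays carried different deposited values. Strain arrays held a score without a stated scale, from -10 to 10, and a score difference is not a fold change. Time course arrays held a linear signal intensity. PAF1 scored 7.27 and 8.08 on the wild type arrays against 1.00 and 0.47 on those labelled paf1 deletion. Its signal went from 272 at 0 h to 119 at 2 h, its lowest. At 4, 5, 6 and 8 h it was 139, 165, 184 and 166, higher than at 2 h but below 0 h. The scores of CTR9 were 1.84 and 4.36 on the wild type arrays and 0.00 on the ctr9 deletion array. The 4 h and 6 h arrays stood apart in their spike-in controls, at 4.34- and 3.93-fold the 0 h signal against 1.01- to 1.14-fold at the other times. On the 4 h array the 5' probe set of actin gave 5.92% of the signal of the 3' one, against 68.6% to 78.6% elsewhere.

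In the strain set, 5 glycogen genes stood 2.23 or more score units higher in the paf1 deletion than in wild type, namely the branching enzyme gene GLC3, the phosphorylase gene GPH1, the debranching enzyme gene GDB1 and the synthase genes GSY1 and GSY2. The ctr9 deletion array was also above both wild type arrays for these 5. PGM2, which encodes a phosphoglucomutase, was higher by less. So was GAC1, the regulatory subunit gene, with scores at the top of the range of background or just above it. For UGP1, the UDP-glucose pyrophosphorylase gene, and for the glycogenin genes GLG1 and GLG2, paf1 deletion and wild type scores overlapped, and most GLG1 scores lay in the range of background. The ctr9 deletion array was above both wild type arrays for GLG1 and GLG2 and below both for UGP1.

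**Figure D1:**
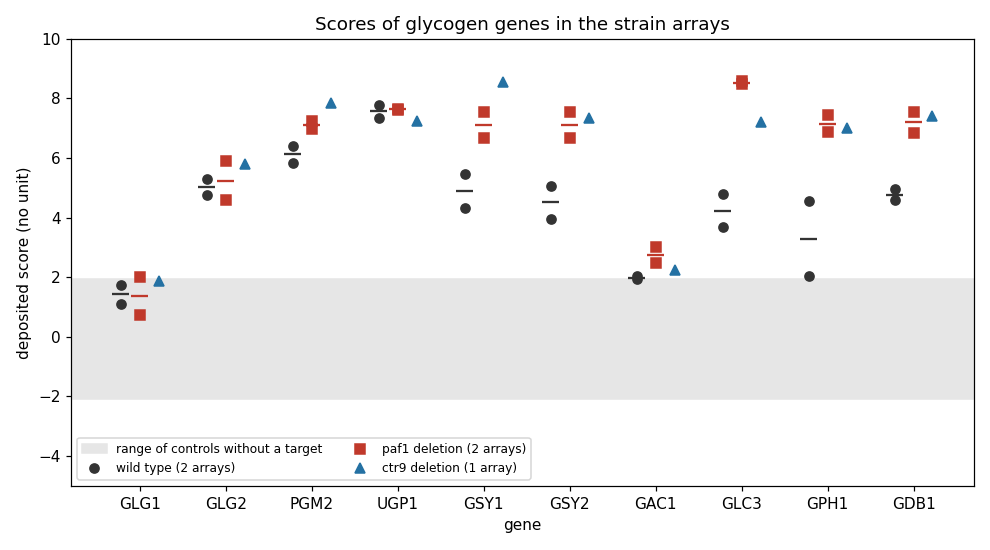
Deposited score (vertical axis, no unit) of each glycogen gene (horizontal axis, ordered by role) on the wild type, paf1 deletion and ctr9 deletion arrays. Points are arrays, short lines are means of 2 arrays, and the grey band is the range of scores, -2.08 to 1.93, of 28 controls that match no yeast transcript. The deletion arrays lie above both wild type arrays for GSY1, GSY2, GLC3, GPH1, GDB1 and PGM2. They also do for GAC1, whose scores lie at the top of the band or just above it.

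In order of the pathway, chain initiation comes first. GLG1, a glycogenin gene, scored 1.12 and 1.73 on the wild type arrays, 2.02 and 0.73 without Paf1 and 1.86 without Ctr9. Of these 5 scores, 4 lay where controls with no target also score, and GLG1 did not reach the limit on low values. GLG2, the other glycogenin gene, scored 4.75 and 5.30 on the wild type arrays, 5.90 and 4.58 without Paf1 and 5.80 without Ctr9. Its wild type scores lay between those of the paf1 deletion, and the difference was 0.22 (SE 0.61, n = 2 per group, limma). The ctr9 score lay above both wild type scores, a difference of 0.78 (SE 0.75, n = 1 against 2).

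Supply of UDP-glucose rests on phosphoglucomutase, which turns glucose 6-phosphate into glucose 1-phosphate, and on the pyrophosphorylase. PGM2, the gene of the major phosphoglucomutase, scored 6.40 and 5.84 on the wild type arrays, 7.25 and 6.96 without Paf1 and 7.86 without Ctr9. All 3 deletion arrays were above both wild type arrays, by a difference of 0.99 (SE 0.50, n = 2 per group) for paf1 and 1.74 (SE 0.61, n = 1 against 2) for ctr9. UGP1 scored 7.79 and 7.34 on the wild type arrays, 7.66 and 7.61 without Paf1 and 7.23 without Ctr9. The 2 paf1 deletion scores lay between the wild type scores, a difference of 0.07 (SE 0.43), and the ctr9 score lay below both, a difference of -0.34 (SE 0.53).

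For chain extension, both synthase genes were higher in every deletion array. GSY1, 1 of a pair of glycogen synthase genes, scored 5.45 and 4.33 on the wild type arrays, 6.68 and 7.55 without Paf1 and 8.55 without Ctr9. Its difference was 2.23 (SE 0.59) for the paf1 and 3.66 (SE 0.72) for the ctr9 deletion, whose array scored highest of the 5. GSY2, known as the gene of the predominant synthase, scored 3.97 and 5.06 on the wild type arrays, 6.66 and 7.54 without Paf1 and 7.36 without Ctr9. The ctr9 score lay between those of the paf1 deletion, and the differences from wild type were 2.59 (SE 0.59) and 2.85 (SE 0.73). GAC1 encodes the subunit that directs the phosphatase Glc7 to glycogen synthase. It scored 1.93 and 2.04 on the wild type arrays, 2.47 and 3.01 without Paf1 and 2.25 without Ctr9. These lie at the top of the background range, 1.93, or just above it, and GAC1 did not reach the limit on low values either.

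GLC3, the gene of the branching enzyme, had the largest difference of the list in the paf1 deletion. It scored 4.80 and 3.68 on the wild type arrays, 8.47 and 8.59 without Paf1 and 7.20 without Ctr9. The lowest paf1 deletion score was 3.67 above the highest wild type score, and the means differed by 4.29 (SE 0.55, n = 2 per group). For ctr9 the difference was 2.96 (SE 0.68, n = 1 against 2).

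Both genes of glycogen breakdown were higher on every deletion array than on either wild type array. GPH1, the phosphorylase gene, scored 2.05 and 4.55 on the wild type arrays, 6.87 and 7.45 without Paf1 and 7.02 without Ctr9. The wild type arrays differed from each other by more than for any other member (SD 1.77), yet lay 2.32 or more below the paf1 deletion arrays. The differences were 3.86 (SE 0.76) for paf1 and 3.72 (SE 0.94) for ctr9. GDB1, the debranching enzyme gene, scored 4.59 and 4.96 on the wild type arrays, 7.54 and 6.85 without Paf1 and 7.40 without Ctr9. Its differences were 2.42 (SE 0.53) and 2.63 (SE 0.65), from wild type scores that lay closer together than those of GPH1.

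Across the list, 8 of 10 genes passed the limit on low values, a mean score of at least 2.84. Linear models were fitted to all 6493 probe sets that passed it, with limma. A call means an adjusted p under 0.05 after Benjamini-Hochberg adjustment over all of them. In the paf1 deletion 2 of 8 members were called higher, where 1.12% of all probe sets tested were called higher. At an unadjusted p under 0.05, 5 of 8 were higher, and 7.04% of all probe sets tested. Without either wild type array 0 members and 0% of all probe sets tested were called higher. Without paf1 deletion replicate 1 the count was 4 of 8 (1.43% of all probe sets tested) and without replicate 2 it was 3 of 8 (2.02%). With all 5 arrays, 1 of 8 members was called without a filter, after quantile normalization or without a variance trend. Those settings called 41, 42 and 39 probe sets in either direction. All 8 estimates were above 0, as were 45.6% of all probe sets tested. Their median was 2.32 score units against -0.06 over all probe sets tested. Both paf1 deletion arrays lay above both wild type arrays for 6 of 8, and for 19.4% of all probe sets tested. The list was chosen with this comparison known, so nothing is read from these counts.

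The ctr9 deletion was compared with the same wild type arrays, so its differences are not separate from those of the paf1 deletion. The list was chosen with earlier results of these arrays known, so nothing is read from the counts in this comparison either. By limma 0 of 8 members were called higher, against 0.0308% of all probe sets tested, and 6 of 8 were higher at an unadjusted p under 0.05, against 5.51%. Of the 8 estimates 7 were above 0, as were 53.4% of all probe sets tested. Their median was 2.74 against 0.05 over all probe sets tested. The single ctr9 array lay above both wild type arrays for 7 of 8, all but UGP1, and for 34.2% of all probe sets tested. Leaving out either paf1 deletion array left the spread to the wild type pair alone. The ctr9 estimates did not change, at 2.96 for GLC3 and 3.66 for GSY1. Leaving out either wild type array called 0 members and 0% of all probe sets tested.

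The deletions were also compared with each other. Between them 0 of 8 members were called in either direction, against 0.0616% of all probe sets tested (limma), and 0 had an unadjusted p under 0.05, against 2.93%. GLC3 was 1.33 higher in the paf1 than in the ctr9 deletion (SE 0.68) and GSY1 1.44 lower, an estimate of -1.44 (SE 0.72). For GPH1, GSY2 and GDB1 the estimates were 0.14 (SE 0.94), -0.26 (SE 0.73) and -0.21 (SE 0.65). With 1 ctr9 array the errors of GPH1, GSY2 and GDB1 leave room for differences of more than 1 score unit either way.

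The score rose less steeply among the brightest probe sets. Probe sets were divided by their mean signal in the time course into 10 groups of equal size. The median score climbed from 5.26 in group 6 to 6.88 in group 8, but only from 7.75 in group 9 to 8.13 in group 10, the brightest, where signals ranged from 1648 to 28077. UGP1, with a mean signal of 4391, lay in group 10, and its wild type mean score of 7.57 was below that group's median. Whether the shape of the score bears on the small UGP1 differences was not tested. GLC3, GPH1, GSY2, GDB1 and PGM2 all lay in group 8, GSY1 in group 6 and GLG2 in group 5.

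**Figure D2:**
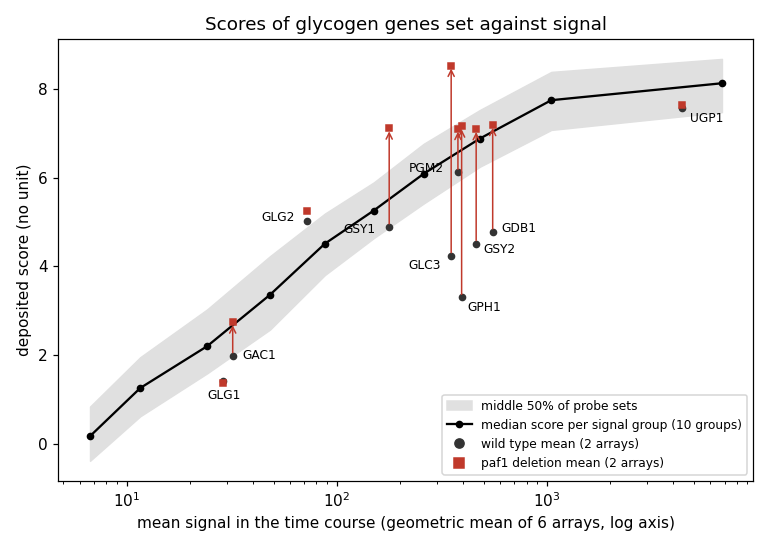
Deposited score (vertical axis, no unit) against the geometric mean signal of the 6 time course arrays (horizontal axis, log scale). The line joins the median scores of all probe sets in the 10 signal groups and the band holds the middle 50% of probe sets. Circles and squares are the wild type and paf1 deletion means of 2 arrays each, and arrows join them where they differ by over 0.3. Wild type means of GLC3, GPH1, GSY2 and GDB1 lie below the band and their paf1 deletion means reach or pass its line.

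In the TetO2-Paf1 strain, the 0 h array held the lowest signal of the 6 for all 8 members that passed the limit on low signals, a geometric mean of at least 34.7. That held for 25.9% of all 6492 probe sets tested. The genes higher in the deletions were already several times above 0 h at 2 h, and then did not follow a steady course. No time was replicated, so folds against 0 h are values without a test. They were computed after raising signals under 5.6, the 10th percentile, to it.

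**Figure D3:**
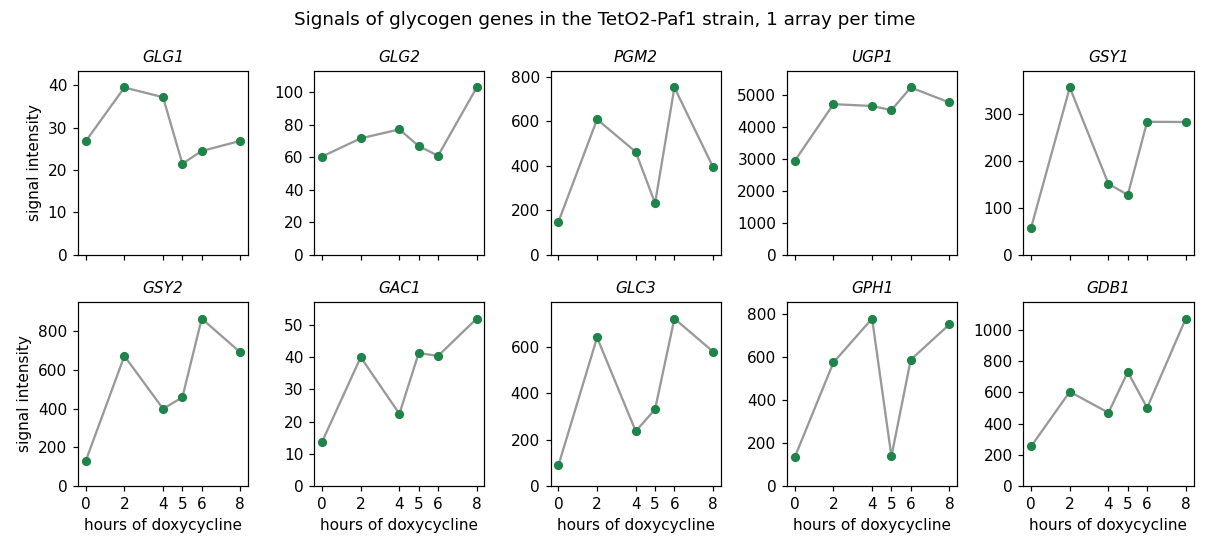
Signal intensity (vertical axes, linear, each from 0) of the glycogen genes against hours of doxycycline (horizontal axes) in the TetO2-Paf1 strain, 1 array per time. The 0 h array is lowest for each gene but GLG1. GPH1, PGM2, GSY1, UGP1 and GLG1 are lower at 5 h than at any other time with the drug, UGP1 by little.

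GLC3, the branching enzyme gene, gave signals of 88.6 at 0 h and 640, 236, 330, 721 and 579 at 2, 4, 5, 6 and 8 h. It was 7.22-fold above 0 h at 2 h and 8.14-fold at 6 h, the highest folds of the list at those times, and 2.66-fold at 4 h, its lowest. GSY2, the major synthase gene, had 129 at 0 h and 673, 400, 458, 866 and 691 at 2, 4, 5, 6 and 8 h. It shared the low value at 4 h and the high values at 2 and 6 h, with 3.09-fold as its lowest and 6.71-fold as its highest. GSY1, the other synthase gene, had 57.7 at 0 h and 355, 151, 127, 283 and 282 at the later times. Its highest fold, 6.16, came at 2 h and its lowest, 2.21, at 5 h.

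GPH1, the phosphorylase gene, had 134 at 0 h and 575, 780, 138, 588 and 753 later. On 4 of the later arrays it was 4.30- to 5.83-fold above 0 h, while at 5 h it was 1.03-fold. GDB1, which acts with phosphorylase in breakdown, ran differently, at 254 at 0 h and 604, 469, 731, 501 and 1073 at the later times. Its 5 h signal was above those at 4 and 6 h, and its highest fold, 4.23, came at 8 h. PGM2 had 148 at 0 h and 609, 463, 232, 753 and 395 later, with 5.09-fold at 6 h and 1.57-fold at 5 h.

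UGP1, the pyrophosphorylase gene, was 2931 at 0 h and between 4514 and 5221 on the later arrays. Its folds of 1.54 to 1.78 were the most even of the list. GLG2, a glycogenin gene, had 60.5 at 0 h and 71.7, 77.2, 66.9, 61.0 and 103 later, at most 1.70-fold, at 8 h. GLG1 and GAC1 did not pass the limit. GLG1 ranged from 21.5 to 39.5 and was lowest at 5 h. GAC1, the phosphatase subunit gene, had 13.7 at 0 h and 40.0, 22.4, 41.3, 40.4 and 52.0 later. For GLG1 every signal, and for GAC1 all but the 8 h one, lay at or under 44.2, the highest signal of a control without a target, so their folds are not interpreted.

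**Figure D4:**
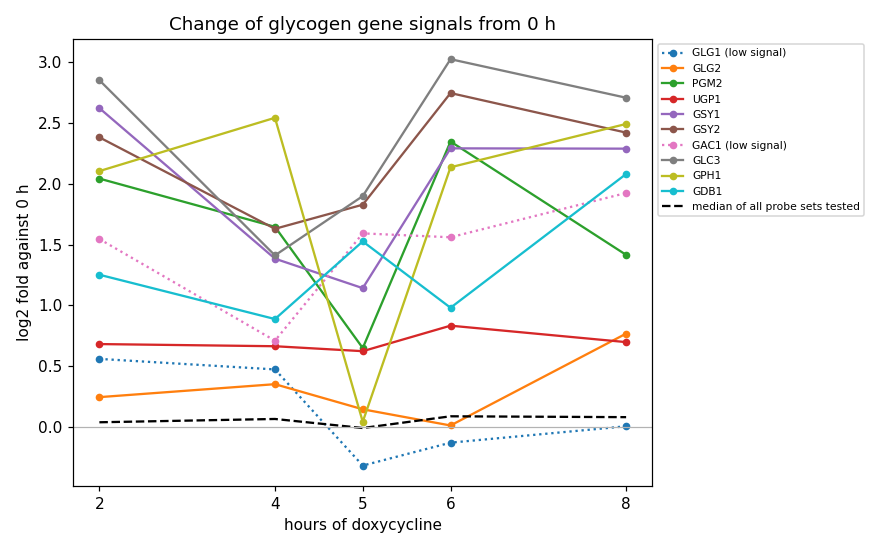
Log2 fold of the signal against 0 h (vertical axis) at 2, 4, 5, 6 and 8 h of doxycycline (horizontal axis) for each glycogen gene, with the median of all probe sets tested as a dashed line. Dotted lines are GLG1 and GAC1, which did not pass the limit on low signals. GLC3, GSY1, GSY2 and PGM2 lie above the dashed line throughout, while GPH1 meets it at 5 h.

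Every fold shares the 1 array at 0 h. The list was chosen with earlier results known, so the counts here are a description. Of the 8 members that passed, 7 were at least 1.5-fold above 0 h at 2 h, where 11.4% of all probe sets tested were. At 4, 5, 6 and 8 h the counts were 7, 6, 7 and 8. The shares of all probe sets tested were then 18.1%, 10.7%, 18.4% and 17.3%. The median log2 fold of the members was 2.07, 1.40, 0.90, 2.21 and 2.18 in order of time, against 0.04, 0.07, -0.01, 0.09 and 0.08 over all probe sets tested. GLC3, GSY1, GSY2, GDB1, PGM2 and UGP1 met this level on all 5 later arrays, 6 of 8, against 3.56%. The count was 6 without the 4 h array (4.98% of all probe sets tested). It was also 6 at 2, 5 and 8 h alone, without both arrays that stood apart in their spike-ins (5.24%). Leaving arrays out can only keep or raise this count, so it could not have fallen. With all 5 later arrays, each array centred on its median, the count was 5, because UGP1 was then 1.48-fold at 8 h.

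The 5 h array was picked out with earlier results of these data known, so the counts on it are a description. At 5 h, GLC3, GPH1, GSY1 and PGM2 were at least 1.5-fold lower than at both 2 and 6 h, 4 of 8 members against 5.53% of all probe sets tested. Set against 2 and 8 h, which avoids the 6 h array, the count was also 4, against 4.96%. The 5 h signal was 0.23-fold that at 6 h for GPH1, 0.31-fold for PGM2, 0.45-fold for GSY1 and 0.46-fold for GLC3. GDB1 went the other way, at 1.46-fold. The 5 h array had the lowest median log2 signal of the 6, -0.11 from their mean, and the 6 h array the highest, 0.11. With arrays centred on the median the count was 4 as well.

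At 4 h, the signals of GLC3, GSY1 and GSY2 were 0.37-, 0.42- and 0.59-fold those at 2 h, whereas GPH1 was 1.36-fold. This is the array with the low actin 5' to 3' ratio. The gene of the phosphatase Glc7, GLC7, had 2 probe sets, of which the dimmer read 25.2 at 4 h and 156 to 201 at the other times, while the brighter read 996 at 4 h and 946 to 1263 otherwise. The part of RNA quality in the 4 h values of the glycogen genes was not tested.

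A line of log2 signal over hours was fitted to all 6492 probe sets with limma. By this measure 0 of 8 members were called higher, and 0% of all probe sets tested, while 4 members (GLC3, GSY2, GDB1 and UGP1) had a higher slope at an unadjusted p under 0.05, against 5.76%. All 8 slopes were above 0, as were 57.0% of all probe sets tested. They ran from 0.06 for GLG2 to 0.27 per hour for GLC3 (SE 0.11). Their median was 0.20 against 0.01 over all probe sets tested. Limma adjusted p ranged from 0.549 to 0.717 among the members. Without the 0 h array the slope of GLC3 was 0.06 per hour, and those of GSY1 and PGM2 were -0.0046 and -0.059, with 0 members called.

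Another 20 genes of the pathway were looked at, covering the kinases, phosphatase and cyclins that act on glycogen enzymes, the glucose-phosphorylating enzymes, PGM1 and the glucoamylase gene SGA1. Of these 19 passed the limits, all but GIP2, which encodes a Glc7-binding protein. By limma 0 of 19 were called in the paf1 deletion, with 3 at an unadjusted p under 0.05 (14.8% of all probe sets tested in either direction), and 0 of 19 in the ctr9 deletion, with 1 (9.64%). Their median differences in the paf1 and ctr9 deletions were 0.07 and -0.12 score units, against -0.06 and 0.05 over all probe sets tested. Above 0 were 10 and 9 of the 19, against 45.6% and 53.4% of all probe sets tested. In the time course 0 of 19 slopes were called, as were 0 of all 6492 probe sets tested. At an unadjusted p under 0.05 there were 5 of 19 slopes, against 8.67%. At least 1.5-fold above 0 h were 4 of 19 at 2, 4 and 5 h each, against 11.4%, 18.1% and 10.7% of all probe sets tested. At 6 and 8 h each they were 6, against 18.4% and 17.3%. HXK1, GLK1 and PSK1 met that level on all 5 later arrays, 3 of 19 against 3.56%.

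Several of these genes are isozymes or partners of the members. PGM1, the gene of the minor phosphoglucomutase, scored 8.10 and 7.93 on the wild type arrays, 7.23 and 7.67 without Paf1 and 8.05 without Ctr9, a difference of -0.57 for paf1 (SE 0.40, limma adjusted p = 0.578). Its signal was 1134 at 0 h and 1006, 982, 954, 811 and 763 later, lower at each of these times, where PGM2 was higher. SGA1, which encodes a glucoamylase of sporulating cells, scored 2.78 and 3.51 on the wild type arrays, 4.78 and 3.93 without Paf1 and 4.60 without Ctr9 (difference 1.21 for paf1, SE 0.66, limma adjusted p = 0.436). Its signal was 74.4 at 0 h and 108 to 166 later. This is the brighter of 2 SGA1 probe sets, the other reading 4.1 to 29.6.

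GLC7, the gene of the phosphatase catalytic subunit, differed by -0.61 in the paf1 deletion (SE 0.38, limma adjusted p = 0.515) in its brighter probe set. PIG1 and PIG2, which encode proteins related to Gac1, differed by 1.42 (SE 0.63, limma adjusted p = 0.332) and -0.38 (SE 0.58, limma adjusted p = 0.855) in the paf1 deletion. In the ctr9 deletion PIG2 differed by -2.16 (SE 0.71, limma adjusted p = 0.359), the pathway gene with an unadjusted p under 0.05 there, from scores of 4.81 and 4.91 on the wild type arrays and 2.70 without Ctr9. The cyclin genes PCL8 and PCL10, whose products direct the kinase Pho85 to glycogen synthase, differed by -0.47 and 0.32 in the paf1 deletion (limma adjusted p = 0.826 and 0.897). None of these was called in the time course, where GLC7 was 0.75- to 0.95-fold its 0 h signal on the later arrays.

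Of the enzymes that phosphorylate glucose, chosen for description after their values were seen, HXK1 and GLK1 stood out in the time course from HXK2. HXK1, a hexokinase gene, had a signal of 491 at 0 h and 2573, 2223, 908, 2715 and 2560 later, also lowest at 5 h among the later arrays. GLK1, the glucokinase gene, had 999 at 0 h and 3865, 2435, 2009, 3116 and 2559 later. HXK2, the main hexokinase gene on glucose, had 7155 at 0 h and 4934 at 8 h, the lowest of its 6. In the paf1 deletion the score differences were 1.75 for HXK1 (SE 0.49, limma adjusted p = 0.113), -0.16 for GLK1 (SE 0.46, limma adjusted p = 0.947) and -0.22 for HXK2 (SE 0.32, limma adjusted p = 0.849).

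Genes with the pattern most like GLC3 and GPH1 were found among 5257 other 1-gene probe sets that passed both limits. Likeness was the mean of Pearson's r over the 5 strain scores and r over the 6 log2 signals. The values at each set of points come from shared arrays, so they are a description. Closest to GLC3 were YGR127W (0.96), YLR177W (0.96), CYB2 (0.96), TPS1 (0.96) and HXT5 (0.95). CYB2 encodes a lactate dehydrogenase, TPS1 the trehalose 6-phosphate synthase and HXT5 a hexose transporter. TPS1 had 692 at 0 h and 1922, 1020, 1486, 1706 and 1498 later, with the low 4 h value seen for GLC3.

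Closest to GPH1 were PRX1 (0.99), PET112 (0.99), ADD37 (0.99), HSP12 (0.98) and HSP26 (0.98). PRX1 encodes a mitochondrial peroxiredoxin, and HSP12 and HSP26 encode small heat shock proteins. HSP26 had 292 at 0 h and 2057, 2922, 311, 1263 and 1778 later, so its 5 h signal was close to that at 0 h, as for GPH1. The likeness of GLC3 and GPH1 to each other was 0.72, which ranked GPH1 351 of 5257 for GLC3 and GLC3 357 of 5257 for GPH1, with r of 0.81 over the strain scores and 0.64 over the signals. Of the glycogen genes the closest to GLC3 was GSY2, at 0.91, ranked 31, and the closest to GPH1 was also GSY2, at 0.83, ranked 147.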

How the data were processed

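RNA had been labelled with biotin and hybridized to Affymetrix yeast arrays, per the labels' protocols. The table holds 9335 probe sets. The 6 time course columns are linear signal intensity values as deposited, scaled by the authors to a common level as the values show. The 5 strain columns are a deposited score bounded at -10 and 10 whose scale, software and processing are not given in the sources used here. Gene names came from the platform annotation, with 6504 probe sets naming exactly 1 gene, 328 several and 2443 none, and 60 controls left out. No probe set of a member named a second gene.

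Scores were used without a logarithm, and signals as log2 after a floor at the 10th percentile (5.6). A filter dropped probe sets with a mean score or mean log2 signal below the 30th percentile and kept 6493 and 6492. All that remained were tested in R 4.3.3 with limma 3.58.1 (lmFit and eBayes, with a variance trend), with Benjamini-Hochberg adjustment over all probe sets tested and a threshold of 0.05. The strain fit rested on 2 residual degrees of freedom and took the spread of the replicated strains for the ctr9 deletion, which had 1 array. The time fit was a slope over hours, with 4. Fits were also run on simulated data whose noise was set in advance and not taken from these arrays. That run does not show how many calls here are right.

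Members, lists and alternatives were chosen with earlier results of these data known. The rule named all 10 members, the pathway genes that are paralogs or partners of a member, and the 5 genes most like GLC3 and GPH1. The 2 replicates of wild type and paf1 deletion share numbers, but the deviations of same-numbered arrays did not correlate (0.008), so no pairs were used. The number of arrays limits the precision. Every member has 1 probe set, so no other probe set could be tried.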

Additional observations from a re-analysis of the deposited data

How the results depend on the processing

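The estimates of GLC3, GPH1, GSY1 and GSY2 in both deletions stayed above 0 under all alternatives run, as did those of GDB1 and PGM2, but the calls depended on the setting. In the paf1 deletion 111 probe sets were called with 2 members among them. Without a filter these were 41 and 1, with a filter at the 50th percentile 56 and 2, after quantile normalization 42 and 1, without a variance trend 39 and 1, and with arrays centred on their medians 237 and 5. In the last case 59.1% of the calls were higher, against 65.8%. Leaving out 1 replicate gave 0 to 190 probe sets and 0 to 4 members, 0 without either wild type array. The replicate block on the wild type and paf1 deletion arrays gave 198 and 4, the cause of which was not tested. In the ctr9 deletion 2 probe sets were called and 0 members. Centring gave 26 and 1, of which 61.5% were higher against 100%, no filter, the 50th percentile, quantile normalization and no trend each gave 0 probe sets, and leaving out 1 replicate gave 0 to 108 probe sets and 0 to 4 members. Between the deletions 4 probe sets were called, or 2 with the 50th percentile, quantile normalization or no trend, and 0 to 11 without 1 replicate. The mean of 6 and 8 h minus that of 0 and 2 h called 1 probe set and 0 members, where the slope called 0.

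Some directions reversed, none of them of a called value. Without 1 replicate, the paf1 difference of GLG2 ranged from -0.45 to 0.88 and that of UGP1 from -0.16 to 0.30. Without 1 time, the slope of GSY1 ranged from -0.0046 to 0.30 and that of PGM2 from -0.059 to 0.23 per hour, both lowest without 0 h. Between the deletions, leaving out 1 replicate gave -0.70 to 0.18 for GSY2, -0.15 to 0.43 for GPH1, -0.55 to 0.14 for GDB1 and -1.22 to 0.10 for GLG2. The folds of at least 1.5 against 0 h, 40 of 50 over all 10 genes, were 39 with centred arrays. They include every fold of GAC1, which are not interpreted, and all share the 1 array at 0 h. A share over all probe sets was not computed for this count. The counts, of 8 members, on later arrays, on 5 h and on groups that did not overlap were also run with alternatives chosen after seeing the data. They ranged from 5 to 6, stayed at 4, and ranged from 6 to 7. Over all probe sets tested the main settings gave 3.56%, 5.53% and 19.4%. These shares were not computed with centring or quantile normalization, so nothing is read from the counts.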
